A study of Mus musculus with 8 samples.

Results

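The regions described here are neighbouring peaks that had higher ATAC-seq signal in WT than in *Chd4-CMko* mouse hearts. They are the autosomal peaks of the WT-enriched list whose nearest other differential peak, measured centre to centre over both deposited lists, was also a WT-enriched peak and lay within 100 kb. Of 2707 autosomal WT-file peaks, 575 met this rule (21.2%), of 15494 autosomal peaks and 15736 peaks listed in all. The peaks were thus selected on the list they are in, which rests on the measured change between genotypes, and on the distance to the nearest peak. List membership and distances are therefore given as descriptions only.

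ATAC-seq marks accessible DNA by letting the transposase Tn5 insert sequencing adapters. Whole hearts at E10.5 were profiled in 8 samples, 4 WT and 4 *Chd4-CMko*, and the comparison addressed how the loss of CHD4 changes accessibility in the heart. In *Chd4-CMko* embryos *Chd4* is deleted conditionally in cardiomyocytes. For sections of the same line the study gives a cross of *Chd4* fl/fl females with *Tnnt2* Cre/+; *Chd4* fl/+ males. The Cre is thus driven from a cardiomyocyte troponin gene, and *Chd4* in the other cells of the heart was not measured here. WT samples are given in the labels only as WT, and the methods speak of control littermates. Each sample was a pool of hearts, of 3 by the study's methods and the series description and of 4 by the protocol deposited with each sample. The deposited lists hold 1 score per peak and no value per sample, so replicate error, read depth and a test between the genotypes were not available, and marker levels of the tissue could not be read from them.

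CHD4 is the ATP-dependent remodeller of the NuRD complex, which moves nucleosomes and removes histone acetyl groups and is best known for closing chromatin. Regulatory DNA often lies in groups, with a promoter and several enhancers spread over a gene's introns and flanks. The globin loci are the classical example: distant enhancers, bound by erythroid factors of the GATA and NF-E2 types, act on globin genes that are switched on in red blood cells. Embryonic hearts at this stage are filled with such cells.

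Sequences of the peaks to which the results below return are printed first. Most were chosen for their motif matches, whereas 51.5% of the neighbouring peaks held no match to any string searched. All are from the plus strand of GRCm38 (mm10), 151 bp each, read from the RefSeq assembly. Capitals mark matches to the consensus strings named in each paragraph, and peaks without capitals held no match.

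At the globin loci the capitals mark an AP-1-type string (TGANTCA, which is also the core of the NF-E2 site), a GATA string (AGATAAG or its reverse complement) and a TEAD string (ACATTCC). The peaks shown are 2 of the 4 of the shortest run of 4 or 5 peaks, and 3 of the 4 of its counterpart at the α-globin locus.
*Hbb-y*, 7.88 kb upstream of the TSS, chr7:103861025-103861175: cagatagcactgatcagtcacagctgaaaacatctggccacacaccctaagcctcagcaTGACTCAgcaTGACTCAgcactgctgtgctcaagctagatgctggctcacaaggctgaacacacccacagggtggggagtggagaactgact
*Hbb-y*, 12.7 kb upstream, chr7:103865872-103866022: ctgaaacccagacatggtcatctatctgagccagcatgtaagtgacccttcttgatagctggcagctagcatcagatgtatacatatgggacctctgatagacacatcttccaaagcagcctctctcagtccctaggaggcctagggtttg
*Nprl3* intron, chr11:32245773-32245923: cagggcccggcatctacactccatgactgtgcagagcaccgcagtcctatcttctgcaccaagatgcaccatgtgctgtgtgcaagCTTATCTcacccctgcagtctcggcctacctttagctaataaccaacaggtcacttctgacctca
*Nprl3* promoter window, chr11:32251002-32251152: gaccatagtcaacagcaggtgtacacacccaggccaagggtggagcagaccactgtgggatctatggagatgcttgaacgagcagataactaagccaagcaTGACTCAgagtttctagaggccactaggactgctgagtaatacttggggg
*Hba-x* promoter window, chr11:32278211-32278361: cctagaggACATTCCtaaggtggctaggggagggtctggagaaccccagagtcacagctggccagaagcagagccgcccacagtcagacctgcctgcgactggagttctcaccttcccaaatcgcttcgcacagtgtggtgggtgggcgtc

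At *Rras2* and beside *Copb1* the capitals mark TEAD (ACATTCC) and AP-1 (TGANTCA). These 4 peaks are shown because the same 2 motifs, in the same order, recurred in 2 close pairs of a single run.
*Rras2* intron, chr7:114051854-114052004: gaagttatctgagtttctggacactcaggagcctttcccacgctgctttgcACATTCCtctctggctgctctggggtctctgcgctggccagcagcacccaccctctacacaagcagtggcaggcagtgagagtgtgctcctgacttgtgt
*Rras2* intron, chr7:114053858-114054008: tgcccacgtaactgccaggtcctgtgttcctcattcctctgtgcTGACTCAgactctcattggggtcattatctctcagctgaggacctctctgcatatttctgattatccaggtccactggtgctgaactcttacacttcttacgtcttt
Intergenic, nearest coding gene *Copb1*, chr7:114170130-114170280: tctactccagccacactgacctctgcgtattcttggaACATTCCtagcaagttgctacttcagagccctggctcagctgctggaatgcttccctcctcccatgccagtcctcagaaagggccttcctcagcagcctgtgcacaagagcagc
Intergenic, nearest coding gene *Copb1*, chr7:114171883-114172033: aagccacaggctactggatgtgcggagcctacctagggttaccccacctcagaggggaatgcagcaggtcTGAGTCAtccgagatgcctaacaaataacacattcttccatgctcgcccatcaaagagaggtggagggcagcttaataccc

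The next peaks lie in genes that hold several neighbouring peaks. The capitals mark AP-1 (TGANTCA) in *Fmn1* and *Mef2c*, and the GATA factor string (AGATAAG) followed by MEIS (TGACAG, here on the minus strand) in *Tcf12*.
*Fmn1* intron, chr2:113358325-113358475: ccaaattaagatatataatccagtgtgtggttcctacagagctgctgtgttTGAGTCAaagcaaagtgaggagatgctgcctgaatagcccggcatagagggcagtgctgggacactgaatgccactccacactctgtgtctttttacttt
*Fmn1* intron, chr2:113420843-113420993: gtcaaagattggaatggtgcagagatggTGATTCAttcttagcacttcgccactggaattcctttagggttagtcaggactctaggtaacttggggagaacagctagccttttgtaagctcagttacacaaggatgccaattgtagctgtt
*Mef2c* intron, chr13:83604410-83604560: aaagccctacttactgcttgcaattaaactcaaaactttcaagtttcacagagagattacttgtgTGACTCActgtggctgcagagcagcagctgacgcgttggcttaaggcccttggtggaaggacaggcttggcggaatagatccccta
*Tcf12* intron, chr9:71930886-71931036: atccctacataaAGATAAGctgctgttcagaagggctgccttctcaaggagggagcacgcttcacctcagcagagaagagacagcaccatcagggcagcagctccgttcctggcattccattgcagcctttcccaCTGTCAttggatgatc

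The last 2 are the highest-scored neighbouring peaks that held the CTCF consensus, the site of the boundary and loop protein CTCF, which is marked in capitals together with a MEIS match at the first base of the *Ndufb6* peak.
Intergenic, nearest coding gene *Ndufb6*, chr4:40301212-40301362: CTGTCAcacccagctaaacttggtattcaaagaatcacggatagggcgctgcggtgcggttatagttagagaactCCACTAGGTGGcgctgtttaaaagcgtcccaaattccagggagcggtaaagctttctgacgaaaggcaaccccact
*Rngtt* intron, chr4:33396612-33396762: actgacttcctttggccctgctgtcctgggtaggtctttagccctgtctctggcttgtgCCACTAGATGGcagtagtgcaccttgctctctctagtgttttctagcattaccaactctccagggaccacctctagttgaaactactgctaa

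Neighbouring WT-file peaks formed 296 runs. A run is here an unbroken stretch of WT-file peaks, with no gained peak (higher in *Chd4-CMko*) between them and no step over 100 kb, that holds at least 1 peak meeting the rule. There were 230 runs of 2 peaks, 53 of 3, 9 of 4 and 4 of 5 peaks, with 675 peaks in all. The other 100 peaks in these runs did not meet the rule, because a gained peak beyond the end of the run lay nearer to them. In 221 pairs each peak was the nearest peak of the other. The median run spanned 38.5 kb, from 0.329 to 255 kb, and the median distance from the end of a run to the next gained peak was 132 kb.

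The distance to the nearest listed peak ranged from 0.329 to 99.3 kb, with a median of 25.7 kb and quartiles of 10.2 and 51.1 kb. It was under 10 kb for 142 peaks and under 1 kb for 20. WT-file peaks were 17.5% of the listed autosomal peaks, and for 812 of them (30.0%) the nearest listed peak was a WT-file peak, with 237 of these pairings beyond 100 kb. The peaks just inside the limit were a pair nearest to *Fam181b* (99.3 kb) and a peak nearest to *Gsdmc* (97.5 kb). Those just outside were nearest to *Aff3* (100.1 kb), *Chchd3* (101.3 kb) and *Slc24a1* (101.5 kb). The distances showed no gap at the limit.

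**Figure D1:**
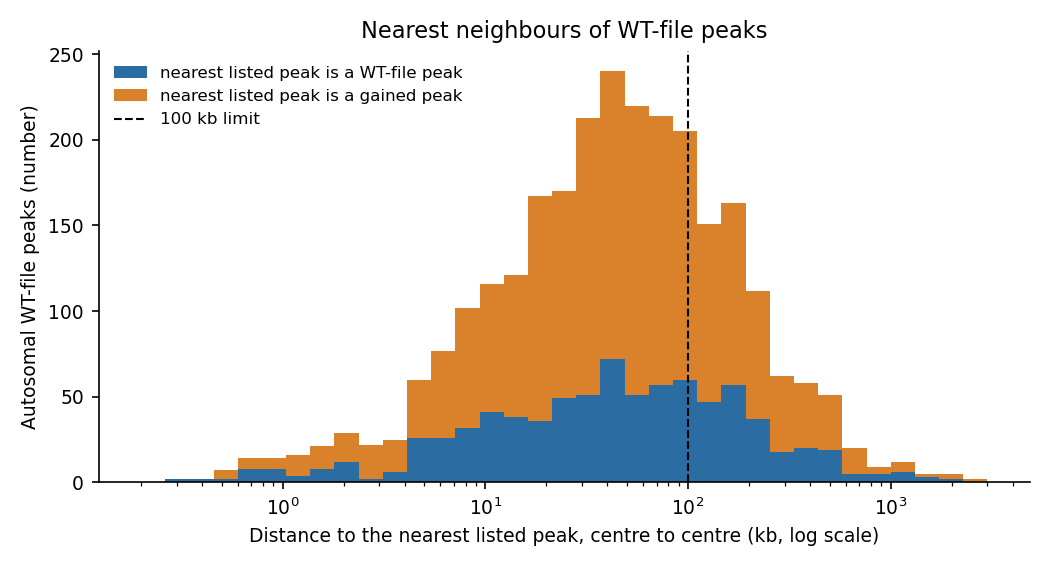
Number of autosomal WT-file peaks (vertical axis) by the distance to the nearest listed peak in kb (horizontal log axis), stacked by the list of that nearest peak. The 575 neighbouring peaks are the blue part left of the dashed 100 kb line, where their median is 25.7 kb, and the blue part right of it holds the other 237 peaks whose nearest peak was a WT-file peak.

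The runs with the most peaks lay at genes of several kinds. The highest counts, 5 peaks each, were at *Bach2*, *Ppfibp1*, *Rras2* and *Gmds*. The counts depended on the 100 kb limit. At 50 kb the runs at *Rras2*, *Mindy2*, *Eps8* and *Snd1* held at most 2 peaks in a row each and none was left at *Phf21a*, and at 200 kb those at *Gmds*, *Mindy2* and *Gm15133* had 8, 6 and 5. With the lower-scored peaks of each list left out, the run at *Gmds* had 3 peaks and none was left at *Hbb-y*, *Fmn1*, *Tcf12*, *Phf21a*, *Gm15133* and *Zfp407*. *Bach2* encodes a transcriptional repressor known from B cells. Its run on chromosome 4 spanned 77.6 kb, with scores of 39.9, 54.9, 76.2, 50.5 and 35.3 in genomic order. The first 3 peaks were intronic, the next lay 543 bp from the start of the antisense gene *Bach2os* and the last was 11787 bp from the nearest *Bach2* TSS. None of the 4 that met the rule held a match to any of the 11 consensus strings searched.

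The run at *Rras2*, which encodes a RAS-related GTPase, was the only run of 5 peaks in which each peak met the rule. It spanned 120 kb on chromosome 7. A pair 2 kb apart in an intron scored 57.1 and 45.4, a single intronic peak 54.1 kb further on scored 65.2, and a second pair, 1.75 kb apart and intergenic, scored 40.5 and 45.8. In both pairs the first peak held a TEAD match and the second an AP-1 match. TEAD proteins are the DNA-binding partners of the Hippo pathway effector YAP, and AP-1 is the FOS and JUN family. The middle peak held a match to the NKX2-5 consensus (CACTTNA), the site type of a cardiac homeodomain factor.

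*Ppfibp1*, which encodes a liprin scaffold protein, held 4 intronic peaks on chromosome 6 that met the rule, and another peak of the run lay intergenic near *Smco2*. The scores were 68.7, 37.7, 39.9, 36.8 and 62.6 in genomic order, so that both ends of the run were higher than its middle. MEIS matches occurred in 3 of its peaks and NKX2-5 matches in 2.
*Gmds*, which encodes an enzyme of GDP-fucose synthesis, has a body of 519 kb on chromosome 13 that held 2 separate runs. The first had 5 intronic peaks with scores of 20.1, 20.9, 42.7, 66.5 and 41.4 over 145 kb. The nearest coding TSS to these 5 peaks was that of *Foxc1*, a forkhead gene of heart and mesenchyme, and not that of *Gmds*. The second run had a peak of score 39.0 in *Gmds* and an intergenic one of score 24.5.

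Runs of 4 peaks were found at *Hbb-y*, *Nprl3*, *Epb41l2*, *Fmn1*, *Tcf12*, *Mindy2*, *Eps8*, *Snd1* and *Phf21a*. At *Fmn1*, which encodes the actin nucleator formin 1, each of the 4 peaks was intronic and met the rule. Their scores fell along the gene, at 53.8, 33.5, 28.6 and 19.8. The first 2 held AP-1 matches and the last 2 MEIS matches. *Tcf12*, which encodes an E-protein that pairs with tissue-specific basic helix-loop-helix factors, held scores of 21.2, 35.7, 45.8 and 25.8 within its 269 kb body. The third held a GATA and a MEIS match and the second a MEIS match.

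The run named for *Mindy2* crossed 3 coding genes on chromosome 9, *Sltm*, *Mindy2* and *Adam10*. *Adam10*, the protease that cleaves Notch receptors, held the highest score of the 15 runs with the most peaks, 99.8, and this peak had a GATA and an AP-1 match. One of the *Mindy2* peaks lay wholly in repeat sequence (100% of its bases). *Eps8* and *Ptpro*, an actin regulator and a receptor phosphatase, shared a run of scores 52.2, 47.2, 39.2 and 37.2 with GATA matches in 2 of the peaks. The runs in *Epb41l2* (a membrane skeleton protein of the 4.1 family), *Snd1* and *Phf21a* lay wholly within their genes, which are 164, 460 and 272 kb long. The *Phf21a* run had the longest span of any run, 255 kb, and only 2 of its 4 peaks met the rule.

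**Figure D2:**
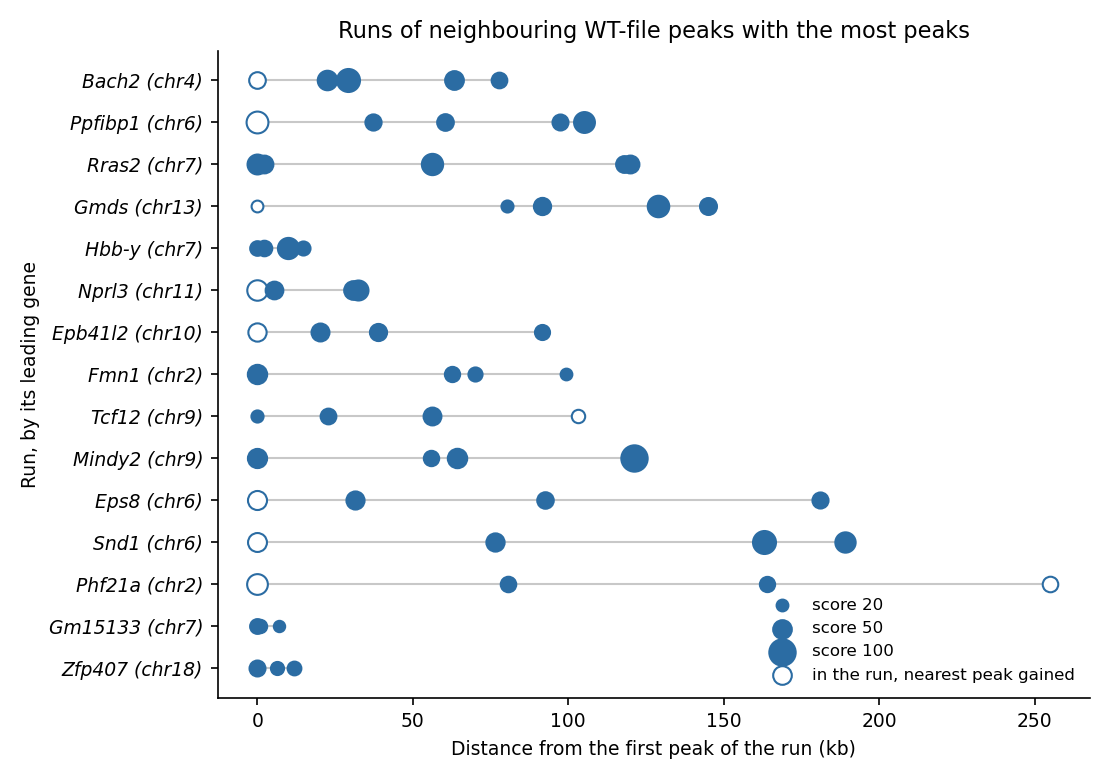
The 15 runs with the most peaks (rows, ties by shorter span, named by the gene of most of their peaks), with each peak at its distance in kb from the first peak of the run and a circle area proportional to its score. Filled circles are the peaks that met the rule, and open circles are peaks of the run whose nearest listed peak was a gained peak. The runs at *Hbb-y* and *Gm15133* are short (14.8 and 6.83 kb) and the run at *Phf21a* is the longest, at 255 kb.

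The β-globin locus held the shortest of the runs of 4 or 5 peaks, at 14.8 kb, and each of its 4 peaks met the rule. No run was found there once the lower-scored peaks of each list were left out. *Hbb-y* encodes the embryonic β-like globin of primitive red blood cells. Peaks lay at its TSS (score 34.8), 2.11 kb downstream of it and 885 bp from *Hbb-bh0* (score 30.8), and 7.88 and 12.7 kb upstream (scores 64.6 and 28.4). The region upstream of *Hbb-y* is where the locus control region of the β-globin genes lies. The peak 7.88 kb upstream had the highest score of the run and held 2 AP-1-type matches on the same strand, 10 bp from start to start, as the sequence printed above shows. Of 61 neighbouring peaks with an AP-1 match, 2 held a second one. The closest gained peak was 47.3 kb from the run. It held CTCF, GATA and AP-1 matches, and a WT-file peak of score 23.8 lay 2.39 kb beyond it, so that this peak did not belong to the run.

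The α-globin locus on chromosome 11 held 4 WT-file peaks over 32.4 kb. *Hba-x* encodes the embryonic α-like globin, and introns of the adjacent *Nprl3* are known to hold the remote α-globin enhancers. Peaks scored 50 at 0.192 kb and 57.5 at 1.89 kb downstream of the *Hba-x* TSS, 45.0 at 25.3 kb upstream, in the promoter window of *Nprl3*, and 60.2 at 30.6 kb upstream in an *Nprl3* intron. The last, which held the GATA match, did not meet the rule, because a gained peak in the same gene lay 2.07 kb from it. Both directions of change thus occurred within 2.07 kb in *Nprl3*. In these hearts, which are bulk tissue, fewer red blood cells and less accessible DNA per cell cannot be told apart.

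**Figure D3:**
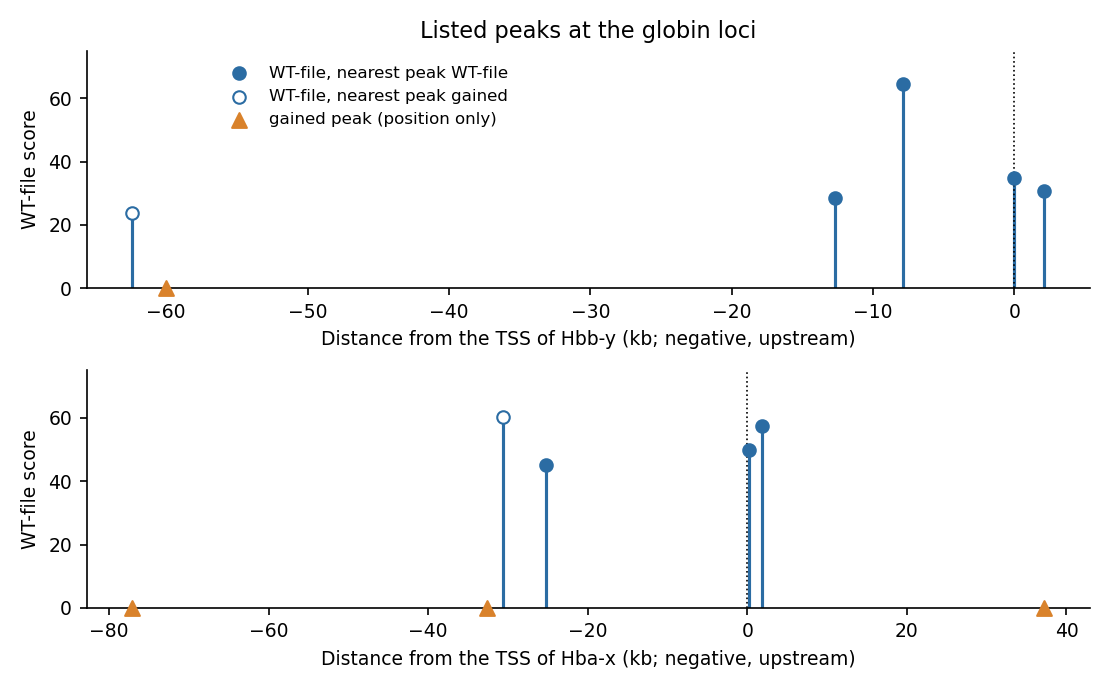
Listed peaks at the β-globin (upper) and α-globin (lower) loci by distance in kb from the TSS of *Hbb-y* and *Hba-x*, with upstream to the left. Stems show the score of WT-file peaks on the authors' scale, filled where the peak met the rule; triangles mark gained peaks, whose scores may be on another scale and are not drawn. The highest stem at *Hbb-y* is the peak 7.88 kb upstream (64.6).

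Of the 8 gene lists examined, erythroid genes had the highest share of members with a neighbouring peak. Over all 20807 protein-coding autosomal genes, 265 (1.27%) had such a peak in the gene body or within 10 kb of it, and 1581 (7.60%) had any WT-file peak there. Of 18 autosomal erythroid genes, 5 had one (27.8%), among them *Hba-x*, *Hba-a1*, *Hbb-y* and *Hbb-bh1*. These genes are not independent cases, since *Hba-x* and *Hba-a1* shared both their peaks and *Hbb-y* and *Hbb-bh1* shared one. A further erythroid gene, *Bcl11a*, had a WT-file peak that did not meet the rule, and 12 had none. The list was chosen with the globin peaks already known, and its count is not independent evidence.

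Of 24 cardiac transcription factor genes, 2 had neighbouring peaks. *Mef2c*, which encodes a core factor of the myocardial programme, held 2 intronic peaks 20.4 kb apart with scores of 22.0 and 42.5, and the higher had an AP-1 match. *Zfpm2*, which encodes the GATA4 cofactor FOG2, held 3 intronic peaks with scores of 66.8, 22.0 and 19.8, the last 2 of them 0.923 kb apart. No gained peak lay in *Zfpm2* or within 10 kb of it, against 1 at *Mef2c*. Another 5 genes of this list, *Gata6*, *Meis1*, *Meis2*, *Foxp1* and *Tead1*, had WT-file peaks outside the rule, and 14 of the 24 had a gained peak, against 31.3% of all protein-coding autosomal genes (6509 of 20807). Gained peaks were also at 13 of 24 contractile, 7 of 12 Sox, 11 of 18 endothelial, 7 of 16 epicardial, 10 of 24 TGF-β and BMP and 18 of 24 adhesion genes, and at 2 of 18 erythroid genes.

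Of 24 contractile and calcium handling genes 1 had a neighbouring pair, *Ryr2*, the cardiac calcium release channel of the sarcoplasmic reticulum. Its intronic peaks scored 35.3 and 60.2 and lay 33.2 kb apart, with no gained peak at the gene. Of 12 Sox genes 1 had neighbouring peaks. *Sox6* held 3 in its introns (38.6, 24.5 and 27.3) beside 5 gained peaks, and a further intergenic pair, 226555 and 205042 bp from the nearest *Sox6* TSS, scored 79.8 and 32.0. Among 16 epicardial and mesenchymal genes *Wt1*, the epicardial zinc finger factor, had 1 intronic peak (37.5). Among 24 genes of the TGF-β and BMP pathway *Bmpr2*, a type II BMP receptor, had 1 exonic peak (45.6). None of 18 endothelial and endocardial genes had one, although 2 of them, *Kdr* and *Erg*, had WT-file peaks outside the rule. Over all protein-coding autosomal genes the share was 1.27%, so counts of 0 or 1 in lists this short carry no result.

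The 24 adhesion and axon guidance genes were listed for their long bodies, and 4 of them had neighbouring peaks (16.7%). *Nrxn3*, *Robo1* and *Ncam1* are described here. *Nrxn3*, a neurexin gene, held intronic peaks of 46.7 and 78.7. *Robo1*, a Slit receptor gene, held peaks of 21.2 and 39.7, and *Ncam1*, a cell adhesion gene, held 3 peaks of 41.9, 49.4 and 35.0. The fourth was *Dcc*, a netrin receptor gene, with 2 peaks of 41.6 and 21.6. In all, 15 of 160 autosomal genes of the lists had a neighbouring peak. Gene length was not matched between the lists, and its part in these counts was not tested.

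Neighbouring peaks lay in introns more often than the other WT-file peaks did, and outside genes less often. Their intron share was 55.1% (317 of 575) against 45.4% of the other 2132, a difference of 9.77 percentage points with a Newcombe 95% interval of 5.17 to 14.3. The intergenic share was 24.3% against 34.7%, a difference of -10.3 points (-14.2 to -6.14). Promoter shares, counted within 3 kb of any annotated TSS, were 16.7% and 16.8% (difference -0.143 points, interval -3.41 to 3.46). Another 13 peaks were exonic, 8 lay in a 3′ UTR and 1 in a 5′ UTR. These intervals treat each peak as independent, which peaks of a run are not. With 1 peak per run, the intron difference was 7.35 points (1.28 to 13.3) and the intergenic difference -7.97 points (-13.1 to -2.30).

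Both differences kept their direction against WT-file peaks that also had a close neighbour, but a gained one. Among the 1410 WT-file peaks next to a gained peak within 100 kb the intron share was 48.2%, a difference of 6.90 points (2.06 to 11.7), and the intergenic share was 31.0%, a difference of -6.65 points (-10.8 to -2.28). Among the 722 WT-file peaks with no listed peak within 100 kb the shares were 39.8% and 41.8%, differences of 15.4 points (9.92 to 20.7) and -17.5 points (-22.4 to -12.4). The intron share of neighbouring peaks was the higher one on 18 of 19 autosomes, with chromosome 11 as the exception (37.5% against 49.5%). Where it was higher, the shares ranged from 45.5% against 45.1% on chromosome 1 to 100% against 59.0% on chromosome 19. Chromosome 19 had only 3 neighbouring peaks. The intergenic share was the lower one on 18 of 19, with chromosome 7, which holds the *Hbb-y* and *Rras2* runs, as the exception.

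**Figure D4:**
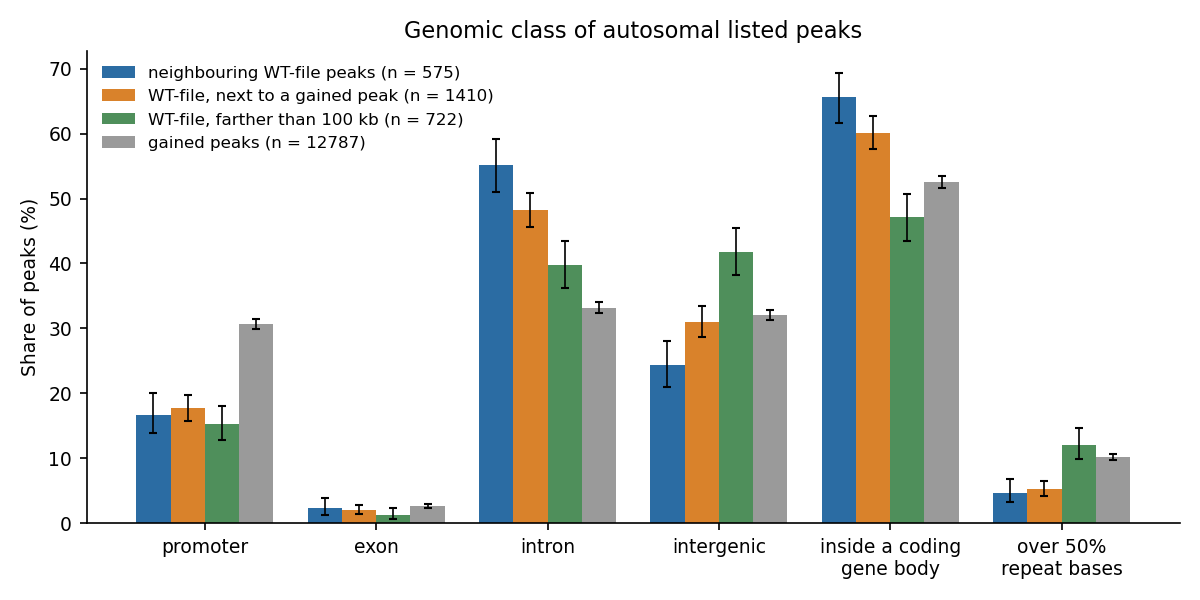
Share of autosomal peaks (%) in 4 genomic classes, inside a protein-coding gene body and with over 50% of bases in repeats, for neighbouring WT-file peaks, the other WT-file peaks by their nearest neighbour, and gained peaks. Bars are shares and error bars are Wilson 95% intervals, which cover counting error only. The intron share falls from 55.1% in neighbouring peaks to 48.2% next to a gained peak and 39.8% in peaks with no listed peak within 100 kb.

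Of the 575 peaks, 377 had their centre in the body of a protein-coding gene (65.6%, against 55.7% of the other WT-file peaks, difference 9.84 points, interval 5.35 to 14.2). They fell in 215 genes, of which 91 held 1, 92 held 2, 28 held 3, 2 held 4 and 2 held 5 of them. The 2 genes with 5 were *Gmds* and *Mcc*. Counted once per peak, the median host gene length was 176 kb, against 149 kb for the other WT-file peaks in coding genes. Of these others, peaks next to a gained peak had a median of 137 kb. Those with no listed peak within 100 kb had 204 kb, so long hosts were not particular to neighbouring peaks. With hosts over 200 kb left out, the difference in the share inside coding genes was 8.46 points (3.04 to 13.8), an alternative added after the data were seen. Whole runs lay inside a single coding gene in 130 of 296 cases (43.9%), and the median length of these hosts was 214 kb. Peaks were only intronic in 107 runs and only intergenic in 45, and 92 runs held a promoter peak, 83 of them together with a peak of another class.

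Genes with more than 1 run were *Gmds*, *Mcc*, *Dock4* and *Nos1ap*. *Nos1ap*, which encodes an adaptor of neuronal nitric oxide synthase and is known for its association with the QT interval, held 3 neighbouring peaks in 2 runs, with scores of 24.9, 29.5 and 75.1, the last in a promoter window with a TEAD match. *Dock4*, a guanine nucleotide exchange factor gene, held peaks of 27.8 and 26.0 in one run and 40.5 in another. *Mcc*, a colorectal tumour suppressor gene, held 2 runs with scores of 40.8 and 46.9, and of 38.8, 22.7 and 44.5.

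The median score was 37.0 for neighbouring peaks and 36.8 for the other WT-file peaks. Among these others it was 39.9 next to a gained peak and 31.3 with no listed peak within 100 kb. The range of the neighbouring peaks was 14.5 to 525.3. The 2 highest, 525.3 and 421.5, were a pair 13.6 kb apart within *Tex14* on chromosome 11, at 291 and 204 bp from the starts of *Rnu3b3* and *Rnu3b4*, which are U3 small nucleolar RNA genes. The next were at the TSS of the phosphodiesterase gene *Pde7b* (213.1), 2650 bp from the 5S ribosomal RNA gene *n-R5s156* (205.8) and in repeat sequence near *Gm3318* on chromosome 10 (156.0, 100% repeat). Of these 5 peaks, 2 thus lay beside starts of U3 genes and 1 in a repeat. The filter on reads with several placements was not stated.

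The closest pairs were 0.329 kb apart in *Afdn*, 0.378 kb in *Wwp1*, 0.477 kb in *Reck*, 0.662 kb beside *Anapc13* and 0.664 kb at the agouti gene *a*. *Afdn* encodes the junction protein afadin, with scores of 32.0 and 26.4, and *Reck* a membrane-anchored inhibitor of matrix proteases, with 66.5 and 40.1. The *a* pair had the highest scores of these, 130.2 and 139.3, and lay 836 and 1500 bp from the TSS of *Gm14226*. Merging peaks under 2 kb apart left 543 neighbouring peaks in 284 runs.

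Repeat-rich peaks were fewer among neighbouring peaks. Over 50% of the bases were soft-masked repeat in 27 of 575 (4.70%) against 7.55% of the other WT-file peaks, a difference of -2.86 points (-4.74 to -0.554). Against WT-file peaks next to a gained peak (5.25%) the difference was -0.553 points (-2.49 to 1.75), and against those with no close neighbour (12%) it was -7.35 points (-10.3 to -4.36). Mean GC content was 50.5% in both groups (SD 5.82 and 5.84, difference 0.0259 points, interval -0.511 to 0.562). It was 51.0% in WT-file peaks next to a gained peak (difference -0.484 points, -1.04 to 0.0762) and 49.5% in those with no close neighbour (difference 1.02 points, 0.374 to 1.67). Sequence shared between neighbours was rare, with 4 of 379 adjacent pairs sharing 12 or more bases in a row. The longest were 64 bases between the *Dock4* peak of score 40.5 and the next peak, of which 60.9% and 99.3% was repeat, and 58 bases in the pair near *Gm3318*.

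None of the 11 consensus strings differed in frequency between neighbouring peaks and the other WT-file peaks by an interval that left out 0. MEIS (TGACAG) was the most frequent, in 17.7% against 17.8% (difference -0.0845 points, interval -3.44 to 3.60). NKX2-5 (CACTTNA) occurred in 11% against 9.76% and AP-1 (TGANTCA) in 10.6% against 8.54% (difference 2.07 points, -0.517 to 5.07). TEAD (ACATTCC) occurred in 7.30% against 7.50%, the GATA factor string (AGATAAG) in 5.57% against 4.78% and KLF/SP (GGGNGNGGC) in 3.48% against 3.61%. ETS (CAGGAAGT) occurred in 2.43% against 2.72%, CTCF in 1.74% against 2.63%, MEF2 in 1.04% against 1.5%, NFY (CCAATCA) in 0.870% against 0.938% and TBX (AGGTGTNA) in 0.522% against 1.55%. In 296 of the neighbouring peaks (51.5%) no string of the list was found. Intervals of this width leave differences of some points undetectable at this number of peaks.

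A single string differed between neighbouring peaks and the WT-file peaks next to a gained peak. TBX matches, the site type of T-box factors, occurred in 3 of 575 against 30 of 1410 (2.13%), a difference of -1.61 points (-2.56 to -0.422) in 11 comparisons that were not adjusted for their number. The WT-file peaks with no listed peak within 100 kb also had few TBX matches (0.416%, difference 0.106 points, -0.764 to 1.14). For GATA the difference was 1.88 points with an interval of -0.0702 to 4.23 against peaks next to a gained peak, and -1.36 points (-3.99 to 1.37) against peaks with no close neighbour. The AP-1 and GATA comparisons also depended on how strictly a string was matched. With 1 mismatch allowed, the AP-1 difference from the other WT-file peaks turned to -4.83 points (-9.41 to -0.258) and the GATA difference became 5.06 points (0.562 to 9.62).

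Most of the strings differed in frequency between neighbouring peaks and the DNA around them. Against 1150 windows of the same length, 1 kb to either side of each peak, 8 of 11 strings had an interval that left out 0. The windows flank the same peaks, but the intervals treat peaks and windows as independent. The 11 comparisons were not adjusted for their number. Matches were more frequent in the peaks for AP-1 (10.6% against 4.35%, difference 6.26 points, 3.63 to 9.23), MEIS (17.7% against 11.1%, 6.61 points, 3.11 to 10.3), TEAD (7.30% against 1.91%, 5.39 points, 3.30 to 7.90), GATA (5.57% against 2.70%, 2.87 points, 0.928 to 5.19), CTCF (1.74% against 0.0870%, 1.65 points, 0.763 to 3.09) and KLF/SP (3.48% against 1.83%, 1.65 points, 0.110 to 3.59). They were less frequent for MEF2 (1.04% against 3.91%, -2.87 points, -4.27 to -1.31) and TBX (0.522% against 1.74%, -1.22 points, -2.21 to -0.0450). The intervals held 0 for NKX2-5 (11% against 10.3%, 0.696 points, -2.28 to 3.95), ETS (2.43% against 1.65%, 0.783 points, -0.557 to 2.50) and NFY (0.870% against 1.39%, -0.522 points, -1.51 to 0.746). Base composition was not matched between peaks and windows, so its part in these differences was not tested. The median distance of a match from the peak centre was 5 bp for CTCF, 20 bp for GATA and 25 bp for TEAD, against 57.5 bp for MEF2.

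**Figure D5:**
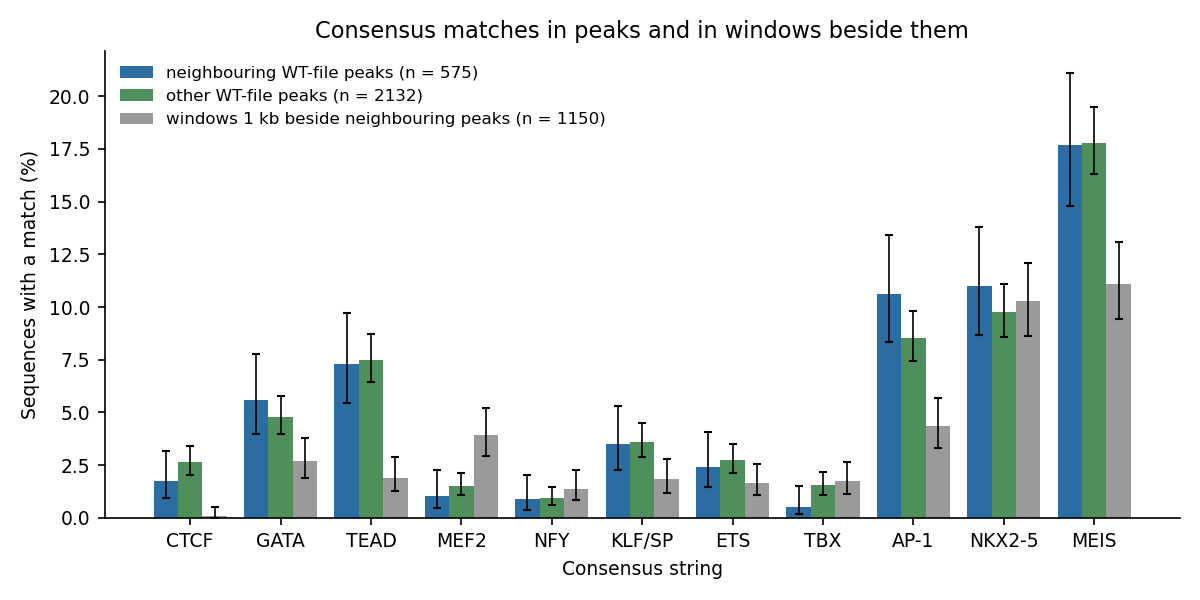
Share of sequences (%) holding a match to each of 11 consensus strings on either strand, in neighbouring WT-file peaks, other WT-file peaks and windows of the same length 1 kb beside the neighbouring peaks. Error bars are Wilson 95% intervals. The first 2 bars of each string lie close together, and the AP-1 bar of the windows (4.35%) stands well below that of the peaks (10.6%).

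Few runs repeated a string in 2 of their peaks. MEIS, the shortest string, did so in 15 runs, AP-1 in 7 (at *Fmn1*, *Nfia*, *Rras2*, *Slc36a4*, *Cbll1*, *Mib1* and *Gpr151*), NKX2-5 in 4, TEAD in 2 (*Ccnl1* and *Rras2*), and GATA, KLF/SP, ETS and TBX in 1 each. No run held CTCF, MEF2 or NFY matches in 2 peaks, with 10, 6 and 5 neighbouring peaks holding them. At *Nfia*, which encodes a nuclear factor I protein, the AP-1 peaks scored 125.8 and 47.6 and lay 3.24 kb apart. The 5 highest-scored CTCF peaks lay near *Ndufb6* (81.7), in *Rngtt* (72.5) and *Adamtsl1* (70.7), near *Nudt19* (64.1) and in *Dmxl2* (58.8). Neighbouring peaks with several matches to the same string were also few: NKX2-5 and MEIS had 8 each, TEAD and AP-1 2 each, and GATA and MEF2 1 each. The MEF2 case was an exonic peak of *Pdlim3*, which encodes an actinin-associated muscle protein, with matches 55 bp apart.

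The share of WT-file peaks that were neighbouring ones, 21.2% over all autosomes, varied between chromosomes. The chromosomes named next are those with the highest and the lowest shares. Their intervals count each peak as independent, although 442 of the 575 lay in pairs of mutual nearest peaks. The intervals are thus too narrow, and the shares are given as description only. Neighbouring peaks made up 32.6% of the WT-file peaks on chromosome 4 (61 of 187, Wilson 95% interval 26.3 to 39.6), 31.2% on chromosome 18 (34 of 109, 23.3 to 40.4), 29.4% on chromosome 7 (50 of 170, 23.1 to 36.7) and 29.0% on chromosome 9 (53 of 183, 22.9 to 35.9), but 9.40% on chromosome 8 (11 of 117, 5.33 to 16.1) and 4.69% on chromosome 19 (3 of 64, 1.61 to 12.9). Gained peaks, whose density enters the rule, ranged from 3.56 per Mb on chromosome 3, where 14.1% of WT-file peaks were neighbouring ones, to 7.41 per Mb on chromosome 11, where 19.5% were, and were at 6.50 per Mb on chromosome 19, 5.96 on chromosome 8 and 5.74 on chromosome 4. Of 254 windows of 10 Mb with a listed peak, 165 held a neighbouring peak, and the 10 with the most held 113 of them (19.7%). Those 10 windows, chosen for that count, held 228 of the 2707 WT-file peaks. In the window from 30 to 40 Mb of chromosome 4, 15 of 21 WT-file peaks met the rule beside 15 gained peaks. These were the peaks at *Bach2*, *Ankrd6*, *Rragd*, *Ube2j1*, *Rngtt*, *Spaca1*, *Akirin2*, *Zfp292* and *Cga*. Only 6 windows with at least 4 WT-file peaks had no fewer WT-file than gained peaks, and 33 neighbouring peaks lay in them.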

How the data were processed

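Hearts were profiled by ATAC-seq in 8 samples (4 per genotype). Per the labels, the authors used BWA-MEM for alignment (mm10), HOMER 4.10.3 for peaks and ChIPseeker 1.20.0 for annotation, and their methods give a 2-fold change for differential peaks. Read filters, duplicates, the Tn5 shift and how replicates were combined are not given in the sources used here, and each can change which peaks are listed. The deposited value is a peak score, whose scale may differ between the 2 lists, so scores were compared only within the WT list. The methods state a sequencing depth, but the depth of each sample could not be read from the lists.

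Nearest peaks, genomic classes (GENCODE M21; promoter first, within 3 kb of a TSS, then 5′ UTR, 3′ UTR, exon, intron, intergenic), sequence (RefSeq GRCm38.p6, soft-masked repeats) and consensus matches were computed with Python 3.11.15 and NumPy 2.4.6. Strings were searched on both strands, and MEF2 and CTCF were 10- and 11-letter consensus strings. Shares have Wilson and differences Newcombe 95% intervals, and the GC difference a normal interval over peaks. These cover counting error only. Code was tested on simulated data. Members and gene lists were chosen with earlier results of these data known. Named loci were the 15 runs with the most peaks (ties by shorter span), the 5 highest scores, the 5 closest pairs, the 5 highest-scored CTCF peaks, genes with several runs and listed genes with a peak in the body or within 10 kb, of which 1 is not reported here. The pairs at *Nfia* and *Pdlim3* and the chromosome 4 window were named after their values were seen. Alternatives were other distance limits, score, repeat, class, promoter and match settings, 1 peak per run, and other comparison groups.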

Additional observations from a re-analysis of the deposited data

How the results depend on the processing

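The intron, intergenic and coding gene body differences kept their direction and an interval without 0 under each alternative run, at 6.90 to 11.9, -14.1 to -6.65 and 5.42 to 13.8 percentage points. Each alternative was run by itself. Taking 1 peak per run was not joined with the comparison against peaks next to a gained peak, so both limits together were not tested. The promoter difference (-0.143 points) and the GC difference (0.0259 points) had intervals around 0 under each alternative run, among which the comparison with WT-file peaks without a close neighbour was not counted. The promoter difference changed sign with a 1 kb window (1.31), with coding TSSs only (0.966), at a 50 kb limit (1.13) and with neighbours under 2 kb merged (0.160). The GC difference changed sign against peaks next to a gained peak (-0.484), without repeat-rich peaks (-0.0558), without windows of 10 Mb rich in WT-file peaks (-0.110, added after the data were seen) and at a 200 kb limit (-0.227). The repeat difference lost its call against peaks next to a gained peak (-0.553), with any repeat base counted (-3.21), at a 200 kb limit (-2.14) and with the lower-scored peaks left out (-0.752). Allowing 1 mismatch moved GATA to 5.06 and AP-1 to -4.83, with intervals that left out 0, and gave 2.33 for TEAD, 0.337 for MEF2 and 1.06 for NFY, with intervals that held 0. Against peaks next to a gained peak TBX was called (-1.61), and TEAD (0.141), NFY (0.0185) and MEIS (0.718) changed sign. The other changes of sign, with intervals that held 0, were at 1 peak per run for TEAD (0.603) and KLF/SP (1.46), in the central part of each peak for TEAD (0.298), NFY (0.00579) and MEIS (0.573), without the windows rich in WT-file peaks for TEAD (0.0682), NFY (0.00949) and MEIS (0.301), at 50 kb for GATA (-0.0518), NFY (0.291), KLF/SP (0.184) and MEIS (0.775), at 200 kb for NKX2-5 (-0.168) and MEIS (1.33), with merging for KLF/SP (0.0935), and without the lower-scored peaks for TEAD (1.61) and MEIS (2.16). The cause of these changes was not tested. Leaving out the lower-scored peaks of each list left 247 neighbouring peaks in 117 runs, by construction from fewer peaks. At 50 kb there were 428 peaks in 222 runs and at 200 kb 708 in 363. No paired analysis was possible because the lists hold no value per sample, and for the same reason no replicate could be left out. The lists carry no depth per sample.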

Other observations

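Outside the autosomes, 38 WT-file peaks lay on X and Y, and 2 of them met the same distance rule. They were a pair 15 kb apart on chromosome X, 2300 and 1451 bp from a TSS of *Alas2*, the erythroid enzyme that begins haem synthesis, with scores of 23.1 and 21.8. Both lay below the lower quartile of scores of the autosomal neighbouring peaks (27.9).

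Besides the chromosome 4 window, 5 windows of 10 Mb held at least 4 WT-file peaks and no fewer than gained ones. On chromosome 12, the window from 40 to 50 Mb held 11 WT-file and 10 gained peaks, with 6 neighbouring ones, and that from 50 to 60 Mb held 19 and 18, with 4. On chromosome 1 the window from 20 to 30 Mb held 12 and 6, with 5, and on chromosome 2 that from 80 to 90 Mb held 14 and 11, with 3. On chromosome 6 the window from 60 to 70 Mb held 7 and 5 and no neighbouring peak. These counts carry no test.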
